A study of Mus musculus with 4 samples.

Results

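The oligodendrocyte lineage factors described here are 8 genes chosen by name out of 35869 rows of an expression table: Olig1, Olig2, Nkx2-2, Nkx6-2, Myrf, Nfia, Nfib and Carhsp1. Each had exactly 1 row. RNA was sequenced from cells of the mouse cerebral cortex at postnatal day 5 that carried both O4 and GalC, lipid antigens of late precursors and young oligodendrocytes, and that were collected by fluorescence-activated sorting. The 2 KO libraries, labelled Zfp488 KO, were made from mice with a knock-in allele of Zfp488 on both chromosomes (KI/KI), and the 2 WT libraries from wild-type control mice. Age, tissue and sort were shared by all 4 libraries. The sources used here do not give the design of the knock-in allele, the strain, the number of mice or any pooling, so each p-value reflects the spread among 4 libraries that may be technical replicates.

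Oligodendrocytes arise from precursors that are marked by the basic helix-loop-helix factors Olig1 and Olig2, which bind E-box DNA as dimers with E proteins. The homeodomain factors Nkx2-2 and Nkx6-2 act with them in patterning and maturation, and Myrf, a membrane-bound factor that cleaves itself to release a DNA-binding part, switches on myelin genes in cells that have stopped dividing. Nfia and Nfib belong to the nuclear factor I family, which starts the production of glia and stays high in astrocytes and precursors. Carhsp1 encodes a small cold-shock-domain protein that binds RNA. Zfp488, the gene of the knock-in allele, encodes a zinc finger protein of the same lineage that has been described as a partner of Olig2.

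Values are FPKM, fragment counts divided by transcript length and by the size of the library, and they are thus levels per length that can be compared between genes. They summed to between 311846 and 341145 per library. Low values stepped by whole reads, and by those steps 1 FPKM on 1 kb stood for about 39.7 reads in KO 1, 39.0 in KO 2, 37.3 in WT 1 and 43.9 in WT 2. The sparsest values of the 8 genes, those of Myrf in KO 2 and Nfia in WT 1, then rest on about 72 and 80 reads. The value of Olig1 in KO 2 rests on about 130000. These read numbers are approximate because the transcript lengths behind the FPKM are not given. Zfp488 was at 4.82 and 4.11 FPKM in KO libraries and at 6.61 and 5.29 FPKM in WT libraries, a difference that did not pass the test (log2 fold change -0.34, SE 0.33; limma, adjusted p = 0.950), so the row does not by itself bear out the label KO.

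The levels of the 8 genes lay between 0.224 and 1487 FPKM. Olig1 and Olig2 stood far above the rest, Nkx2-2 and Carhsp1 were at intermediate levels, and Nkx6-2, Nfib, Myrf and Nfia were low. By mean over the 4 libraries the order was Olig1 (1396 FPKM), Olig2 (424.2), Nkx2-2 (14.8), Carhsp1 (9.34), Nkx6-2 (3.69), Nfib (2.41), Myrf (1.01) and Nfia (0.700). Olig1 lay above Olig2, and Olig2 above Nkx2-2, in every library. Further down, the ranges of Nkx2-2 and Carhsp1 over the libraries overlapped, as did those of Carhsp1 and Nkx6-2, of Nkx6-2 and Nfib, of Nfib and Myrf, and of Myrf and Nfia. Of the 8 genes, 7 had at least 1 FPKM in at least 2 libraries and were tested. Nfia reached 1 FPKM in WT 2 alone and was not.

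**Figure D1:**
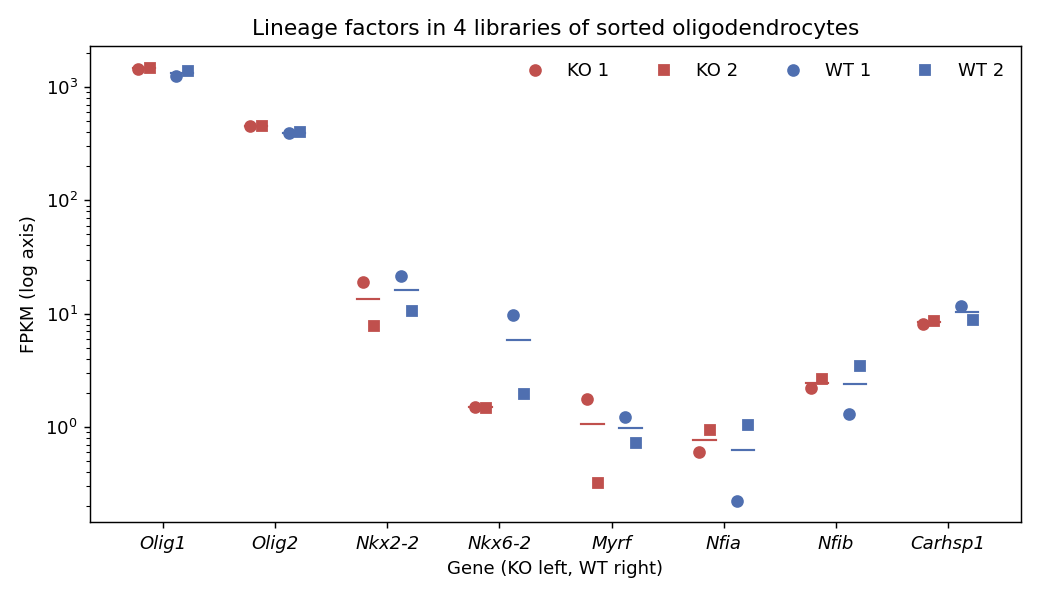
FPKM (log axis) of the 8 genes in each library, KO left and WT right of each gene; circles are libraries numbered 1, squares libraries numbered 2, and short bars the group means (n = 2). Olig1 and Olig2 have tight points around their means of 1396 and 424.2 FPKM, while the points of Nkx2-2, Nkx6-2, Myrf, Nfia and Nfib within a genotype lie far apart in at least 1 genotype.

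No lineage factor passed the test between genotypes. By limma on log2(FPKM + 1), 0 of the 7 tested genes had an adjusted p under 0.05, and 0 had an unadjusted p under 0.05 (smallest 0.10, for Olig2). Under other settings of limma, the unadjusted p after rescaling to TPM was 0.023 for Olig1 and 0.029 for Olig2. After quantile normalization it was 0.088 for Olig1 and 0.014 for Olig2. Without the variance trend it was 0.55 and 0.45, and with no filter 0.41 and 0.15. No adjusted p among these was under 0.05. Without WT replicate 2 the log2 fold change of Nkx6-2 was -2.12. Over all 10754 tested rows 0% passed, with 608 rows at an unadjusted p under 0.05. Both KO libraries lay above both WT libraries for 2 of the 8 genes, Olig1 and Olig2, where the share over all tested rows was 16.6%, and below for 2, Nkx6-2 and Carhsp1, where it was 18.3%. In total 34.9% of all tested rows separated the genotypes without overlap. The remaining 4 genes, Nkx2-2, Myrf, Nfia and Nfib, overlapped between genotypes. The direction of each gene is given below as a difference that did not pass.

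**Figure D2:**
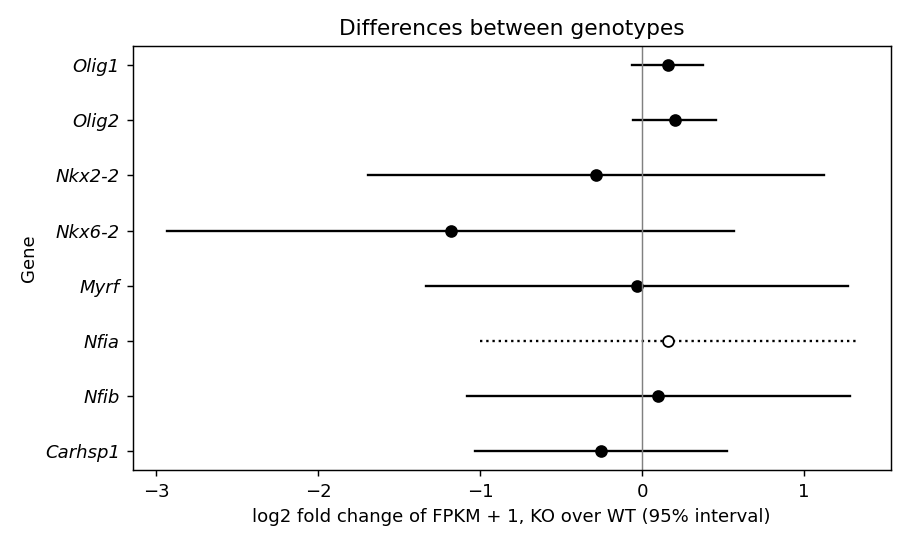
Log2 fold change of FPKM + 1 (x axis, KO over WT) for each gene, with its 95% interval from limma. All 8 intervals include 0; those of Olig1 and Olig2 are the narrowest and that of Nkx6-2 the widest, and the open point with the dotted line is Nfia, which was tested only with no filter on low values.

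Olig1 and Olig2 were among the most abundant transcripts in every library. Olig1, needed for maturation and remyelination, was at 1456 and 1487 FPKM in KO libraries and at 1249 and 1392 FPKM in WT libraries. It ranked 4 and 5 of all rows in the KO libraries and 6 in each WT library. Olig2, which specifies the lineage, was at 454.1 and 453.0 FPKM in KO libraries and at 390.2 and 399.5 FPKM in WT libraries, ranks 58 and 67 in KO and 113 and 108 in WT. The KO libraries were thus the higher ones for each gene, with group means 11.5% (Olig1) and 14.9% (Olig2) above those of WT. The log2 fold change was 0.16 for Olig1 (SE 0.085, 95% interval -0.061 to 0.38; limma, adjusted p = 0.914). For Olig2 it was 0.20 (SE 0.099, 95% interval -0.055 to 0.45; adjusted p = 0.914). These intervals were the narrowest of the 8 genes. Much of this narrowness came with the variance trend of the model. Without that trend the SE was 0.245 for Olig1 and 0.239 for Olig2.

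The replicate gap of Olig2 was small. Its KO libraries differed by 0.0036 on the log2 scale, a gap larger than that of 0.828% of all tested rows. Its WT libraries differed by 0.034, larger than that of 5.03%. These shares, like those given below for Nkx2-2 and Nkx6-2, are over rows of all levels, and rows of like level were not compared separately. Olig1 and Olig2 lie on mouse chromosome 16 on the same strand, Olig2 from 91225457 to 91228677 and Olig1 from 91269772 to 91271933 (GENCODE M21, GRCm38), 41.1 kb apart. Their ratio within a library, which no library scaling touches, was 3.21 and 3.28 in KO libraries and 3.20 and 3.48 in WT libraries. The groups overlapped, and the log2 ratio differed by -0.041 (exact two-sided permutation test, p = 1, adjusted p = 1 over 3 ratios; 2 against 2 libraries allow no p below 0.333). The family member Olig3 was listed at 0 in all libraries.

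The start of Olig2 is shown because its gene had the highest level among the 5 of 8 genes with an entry in the RefSeq promoter table (GRCm38.p6, 250 bases before to 50 after the start). Capitals mark the letters TATAAA, which began at position 243 of the 300 bases and are held on either strand by 14.2% of all 27025 promoters of that length. The window spans chr16:91225300-91225599 on the plus strand, and 65.0% of its bases are G or C, against a median of 52.7% over all promoters.
Olig2: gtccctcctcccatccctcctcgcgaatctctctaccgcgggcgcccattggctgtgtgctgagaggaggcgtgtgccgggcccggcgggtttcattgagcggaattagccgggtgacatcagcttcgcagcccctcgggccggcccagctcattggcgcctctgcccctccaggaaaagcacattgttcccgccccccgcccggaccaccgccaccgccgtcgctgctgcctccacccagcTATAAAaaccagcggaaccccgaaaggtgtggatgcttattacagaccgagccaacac

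Nkx2-2 differed more between libraries of 1 genotype than between the genotypes. This homeodomain factor, which promotes the step from precursor to differentiating cell and represses Pdgfra, was at 19.2 and 7.82 FPKM in KO libraries and at 21.7 and 10.6 FPKM in WT libraries. Libraries numbered 1 were the higher ones in each genotype. The log2 fold change between genotypes was -0.28 (SE 0.55, 95% interval -1.69 to 1.12; limma, adjusted p = 0.991). The gap between the libraries of a genotype was 1.19 on the log2 scale in KO and 0.97 in WT, larger than the gap of 90.3% and 81.4% of all tested rows. Between libraries of the same number, KO minus WT was -0.17 for number 1 and -0.40 for number 2. Without WT replicate 1 the log2 fold change was 0.20, and without KO replicate 2 it was 0.31.

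Its antisense gene Nkx2-2os followed the same order of libraries. This long non-coding RNA was at 15.3 and 8.61 FPKM in KO libraries and at 17.6 and 9.32 FPKM in WT libraries, so WT 1 was highest, then KO 1, WT 2 and KO 2, as for Nkx2-2 (log2 fold change -0.15, SE 0.44; limma, adjusted p = 0.994). Nkx2-2 lies on the minus strand of chromosome 2 (147177546 to 147194243), and Nkx2-2os runs over it on the plus strand from 147184083. They share 278 exonic bases, of 2875 exonic bases of Nkx2-2, and without a strand setting reads of those bases cannot be told apart. A further non-coding RNA on the plus strand within the span of Nkx2-2, 6430503K07Rik, shares no exonic base with it and had another order, at 4.82 and 12.7 FPKM in KO libraries and 10.5 and 25.4 FPKM in WT libraries.

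The starts of this overlapping pair are shown because the pair kept the same order in all 4 libraries. The RefSeq start of Nkx2-2 used here lies within the gene span given above, not at its outer end. Nkx2-2 has 4 annotated transcripts. Capitals mark E-boxes, the letters CANNTG that bHLH dimers bind, which 72.1% of all promoters of that length hold, and the letters AAGTG on either strand, a core bound by NK2 homeodomains, held by 46.5%. The window of Nkx2-2 (chr2:147186353-147186652, minus strand) had 3 E-boxes and 1 match to AAGTG on the opposite strand, whose letters lie within an E-box. The window of Nkx2-2os (chr2:147183833-147184132, plus strand) had 2 E-boxes. These are matches of letters and not evidence of binding.
Nkx2-2: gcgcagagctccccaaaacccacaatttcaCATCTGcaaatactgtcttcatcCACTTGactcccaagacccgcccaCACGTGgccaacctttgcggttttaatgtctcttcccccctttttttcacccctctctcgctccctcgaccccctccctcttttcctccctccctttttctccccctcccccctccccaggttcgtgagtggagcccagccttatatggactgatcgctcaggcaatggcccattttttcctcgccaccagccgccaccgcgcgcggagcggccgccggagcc
Nkx2-2os: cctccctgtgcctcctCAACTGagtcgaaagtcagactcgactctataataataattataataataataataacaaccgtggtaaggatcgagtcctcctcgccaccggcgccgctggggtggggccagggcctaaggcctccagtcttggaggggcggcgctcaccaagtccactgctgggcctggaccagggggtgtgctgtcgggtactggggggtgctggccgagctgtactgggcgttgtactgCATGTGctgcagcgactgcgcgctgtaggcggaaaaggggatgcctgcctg

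The Nkx2-2 profile over the libraries was most like that of Neu4, a sialidase gene of the lineage. Small RNAs, unnamed genes (Gm and Rik symbols) and the 8 lineage factors were left out of this search. Among the 5385 tested genes of at least 5 FPKM on average that remained, Neu4 had the smallest root mean square difference of centred log2 values over the 4 libraries, 0.059, and stood at 52.4 and 24.3 FPKM in KO libraries and 62.1 and 33.3 FPKM in WT libraries. Kazn (0.077) and Gp1bb (0.097) came next. With 4 libraries, such likeness describes these libraries alone.

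Nkx6-2 showed the largest difference between genotypes among the 8 genes, and 1 library carried most of it. This homeodomain factor of maturing oligodendrocytes, needed for normal myelin at paranodes, was at 1.5 and 1.48 FPKM in KO libraries and at 9.82 and 1.96 FPKM in WT libraries. WT 1 stood alone, and the highest of the other 3 libraries was WT 2. The log2 fold change was -1.18 (SE 0.68, 95% interval -2.93 to 0.57; limma, adjusted p = 0.915), and without WT replicate 1 it was -0.25. The gap between the WT libraries was 1.87 on the log2 scale, larger than that of 94.9% of all tested rows, while the gap between the KO libraries, 0.012, was larger than that of 2.18%. By the read steps, the value in WT 1 rests on about 700 reads and those in the other libraries on about 110 to 160.

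Nkx6-2 lies on the minus strand of chromosome 7 (139579376 to 139582797) and its end overlaps that of Inpp5a, an inositol phosphatase gene on the plus strand, by 246 exonic bases of its 1907. Inpp5a was at 2.82 and 1.28 FPKM in KO libraries and at 1.13 and 1.90 FPKM in WT libraries, so it was not high in WT 1. The genes most like Nkx6-2 over the libraries were Gemin2, of the complex that assembles spliceosomal particles (root mean square difference 0.15), and the kinase gene Pak4 (0.27). Gemin2 was at 4.57 and 4.54 FPKM in KO libraries and at 19.2 and 4.29 FPKM in WT libraries, thus also high in WT 1 alone. The log2 ratio of Nkx2-2 to Nkx6-2 was 3.01 and 1.83 in KO libraries and 1.07 and 1.97 in WT libraries, a difference of 0.90 between overlapping groups (exact two-sided permutation test, p = 0.667, adjusted p = 1 over 3 ratios).

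The start of Nkx6-2 is shown as that of the gene with the largest difference. Its window (chr7:139582748-139583047, minus strand) held 1 E-box, in capitals, 0 matches to AAGTG and 66.7% G or C.
Nkx6-2: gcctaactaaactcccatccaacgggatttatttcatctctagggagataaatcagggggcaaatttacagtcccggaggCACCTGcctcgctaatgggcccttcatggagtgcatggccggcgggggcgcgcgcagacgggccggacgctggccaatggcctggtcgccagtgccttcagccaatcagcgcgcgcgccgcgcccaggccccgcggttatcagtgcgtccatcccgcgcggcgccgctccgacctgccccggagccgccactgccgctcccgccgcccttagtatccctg

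Most of the remaining genes of the Nkx families were near 0. Of the 17 paralogs of the 8 genes looked up, 4 were tested, and 12 stayed under 1 FPKM in every library. Nkx6-1, the close relative of Nkx6-2 in ventral spinal cord, reached at most 0.015 FPKM. Nkx2-1, a factor of ventral forebrain, was at 1.44 and 0.297 FPKM in KO libraries and at 0.328 and 1.04 FPKM in WT libraries, levels like those of Myrf. Its relative Nkx2-4 was at 0.019 and 1.2 FPKM in KO libraries and at 0 and 0.009 FPKM in WT libraries, thus above 1 FPKM in KO 2 alone. Over the 4 tested paralogs (Csdc2, Nfix, Nfic and Nkx2-1) 0 passed, 0 separated the genotypes in either direction and the median log2 fold change was -0.029, beside 8.1e-05 over all tested rows.

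Myrf was low and its libraries spread widely. It was at 1.78 and 0.323 FPKM in KO libraries and at 1.22 and 0.727 FPKM in WT libraries. KO 1 held the highest value and KO 2 the lowest, so the WT libraries lay between the KO libraries. The log2 fold change was -0.030 (SE 0.51, 95% interval -1.33 to 1.27; limma, adjusted p = 0.998), and its sign turned with a pseudocount of 5 (0.0093), without WT replicate 1 (0.15) and without KO replicate 2 (0.51). On chromosome 19 the gene spans 10208272 to 10240748 on the minus strand. Its neighbour Tmem258, of the oligosaccharyltransferase complex, shares no exonic base with it and was at 124.8 and 130.2 FPKM in KO libraries and 138.8 and 164.5 FPKM in WT libraries. The genes most like Myrf over the libraries were Pnck (root mean square difference 0.052), Mul1 (0.052) and Pcp4 (0.055). Pnck was at 9.69 and 4.40 FPKM in KO libraries and at 8.18 and 5.57 FPKM in WT libraries. This likeness holds on the log2(FPKM + 1) scale, which understates the change of low genes. In FPKM, Myrf was 5.51 times as high in KO 1 as in KO 2, a wider gap than that of Pnck. The related gene Myrfl reached at most 0.009 FPKM.

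Myelin genes that Myrf is known to activate took part of the order of Myrf, by their mean and by their sum. KO 2 was lowest by each, as for Myrf, but WT 1 and not KO 1 was highest. Of 16 such genes 12 were tested and 0 passed, with the KO values under both WT values for 7 genes, over them for 1 and overlapping for 4 (median log2 fold change -0.95). Over all tested rows the shares were 18.3% below and 16.6% above, with a median of 8.1e-05. This list was chosen with earlier results of these data known and is no independent evidence of its direction. The mean log2(FPKM + 1) of the 12 tested genes was 3.93 and 3.23 in KO libraries and 4.69 and 4.36 in WT libraries. By this mean KO 1, highest for Myrf, stood below each WT library. The summed level of all 16 genes was 633.3 and 312.4 FPKM in KO libraries and 971.4 and 590.9 FPKM in WT libraries. By this sum KO 1 lay above WT 2, and libraries numbered 1 lay above those numbered 2, as for Myrf. WT 1 was highest by the mean, by the sum and for Nkx6-2. The most abundant members were Cnp, an enzyme of non-compact myelin, and the fatty acid hydroxylase gene Fa2h. Cnp was at 308.8 and 150.7 FPKM in KO libraries and at 440.1 and 261.1 FPKM in WT libraries. Fa2h was at 115.8 and 54.8 FPKM in KO libraries and at 168 and 78.5 FPKM in WT libraries. Each overlapped between genotypes, with KO 1 above WT 2.

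**Figure D3:**
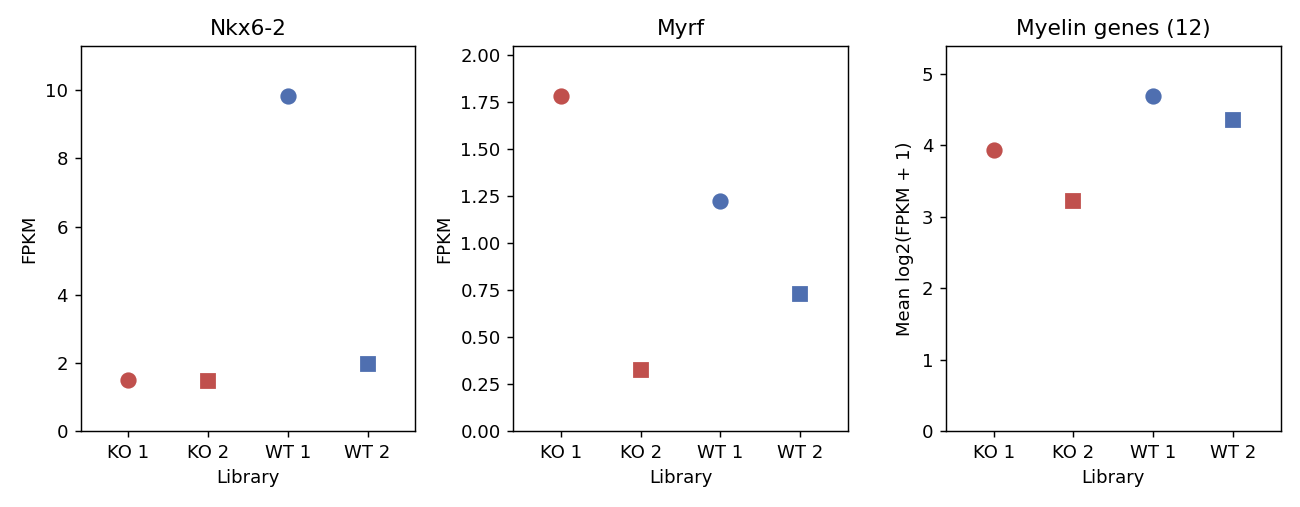
Nkx6-2 (left, FPKM), Myrf (middle, FPKM) and the mean log2(FPKM + 1) of the 12 tested myelin genes (right) in each library; circles are libraries numbered 1 and squares libraries numbered 2. Nkx6-2 is high in WT 1 alone (9.82 FPKM), Myrf is highest in KO 1 (1.78 FPKM), and the myelin mean is lower in KO (3.93 and 3.23) than in WT (4.69 and 4.36).

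Nfia and Nfib were low and their lowest value was that of WT 1. Nfia was at 0.605 and 0.936 FPKM in KO libraries and at 0.224 and 1.04 FPKM in WT libraries. Nfib was at 2.22 and 2.65 FPKM in KO libraries and at 1.3 and 3.47 FPKM in WT libraries. For each gene the KO libraries lay between the WT libraries, and libraries numbered 2 were higher than those numbered 1. The log2 fold change of Nfib was 0.099 (SE 0.46, 95% interval -1.08 to 1.28; limma, adjusted p = 0.995). That of Nfia, tested with no filter on low values, was 0.16 (SE 0.38, 95% interval -1.0 to 1.32; limma, adjusted p = 0.953). Without WT replicate 1 the signs turned (-0.21 for Nfia and -0.38 for Nfib). The ratio of Nfia to Nfib within a library was 0.272 and 0.353 in KO libraries and 0.173 and 0.299 in WT libraries, lowest in WT 1 and overlapping between the genotypes. On the log2(FPKM + 1) scale, which evens out such low values, the ratio differed by 0.060 (exact two-sided permutation test, p = 1, adjusted p = 1 over 3 ratios), and with a pseudocount of 0.1 by 0.31.

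The other nuclear factor I genes were at similar levels. Nfix was at 1.77 and 2.43 FPKM in KO libraries and at 1.54 and 2.96 FPKM in WT libraries, with the same order of libraries as Nfib. Nfic had the reverse order in WT, at 1.88 and 1.76 FPKM in KO libraries and 2.20 and 1.54 FPKM in WT libraries. The transcript E130114P18Rik, which runs from the opposite strand over the start of Nfia and shares 4 exonic bases with it, was far higher than Nfia and nearly even, at 34.5 and 34.0 FPKM in KO libraries and 32.8 and 33.0 FPKM in WT libraries. Nfia and Nfib both lie on chromosome 4, Nfib from 82290173 to 82705750 and Nfia from 97772734 to 98118874.

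Carhsp1 was somewhat lower in KO libraries. It was at 8.14 and 8.65 FPKM in KO libraries and at 11.7 and 8.83 FPKM in WT libraries. Both KO values lay below both WT values, though KO 2 and WT 2 were close, and after rescaling to TPM the groups overlapped. The log2 fold change was -0.25 (SE 0.30, 95% interval -1.03 to 0.52; limma, adjusted p = 0.972), and without WT replicate 1 it was -0.067. Carhsp1 lies on chromosome 16 (8658580 to 8672155, minus strand), far from the Olig pair. Its paralog Csdc2, another cold-shock-domain gene, was at 5.78 and 7.50 FPKM in KO libraries and at 6.76 and 12.9 FPKM in WT libraries (log2 fold change -0.45, SE 0.40; adjusted p = 0.949), with WT 2 rather than WT 1 as the highest library.

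The 4 genes that overlapped between genotypes separated the libraries by their number. Nkx2-2 and Myrf were higher in KO 1 and WT 1 than in KO 2 and WT 2, and Nfia and Nfib were lower there, each without overlap. Over all tested rows 17.2% separated the numbers in the first way and 22.3% in the second, 39.5% in total, so that separation by number was frequent throughout the table. A gene that separates the genotypes cannot also separate the numbers. Among genes that overlap between genotypes, as these 4 do, the share is therefore higher than 39.5%. Nfia was not among the tested rows. The summed level of the 16 myelin genes also separated the numbers, higher in KO 1 and WT 1, as for Myrf. By the mean of the 12 tested myelin genes, libraries numbered 1 were higher within each genotype only. Marker lists of other cell types moved with the number as well. The summed level of 8 vascular markers was 1.02 and 42.4 FPKM in KO libraries and 0.454 and 43.6 FPKM in WT libraries, with Cldn5, of endothelial tight junctions, at 0.035 and 26.3 FPKM in KO and 0 and 26.8 FPKM in WT, while Pecam1 and Pdgfrb stayed under 1 FPKM in every library.

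The summed levels of astrocyte, microglia and neuron markers were also higher in libraries numbered 2. The summed level of 10 astrocyte markers was 116.6 and 258.6 FPKM in KO libraries and 91.8 and 171.2 FPKM in WT libraries, so it was lowest in WT 1, where Nfia and Nfib were lowest too. Slc1a3 alone made up most of each sum, at 92.4 and 187 FPKM in KO and 71.9 and 102 FPKM in WT. Of these markers 3 stayed under 1 FPKM in every library, and the astrocyte enzyme gene Aldh1l1 was at 0 in KO 1 and WT 1. For 8 microglia markers the sums were 24.3 and 73.0 FPKM in KO libraries and 19.7 and 69.9 FPKM in WT libraries. C1qb carried most of the gap, at 9.85 and 53.6 FPKM in KO and 9.97 and 43.4 FPKM in WT. In KO, C1qa (10.4 and 9.46 FPKM) and Tmem119 (2.24 and 0.024 FPKM) went the other way. P2ry12 was at 0 in WT 1. For 12 neuron markers the sums were 25.3 and 41.8 FPKM in KO libraries and 17.4 and 33.1 FPKM in WT libraries, a gap carried mainly by Tubb3 (9.55 and 24.6 FPKM in KO, 10.4 and 24.2 FPKM in WT). Neurod6 (3.06 and 0 FPKM in KO) and Stmn2 in WT (1.35 and 0.503 FPKM) went the other way. Rbfox3, Slc17a7 and Gad1 stayed under 1 FPKM in every library. In bulk samples fewer cells of a type and less RNA per cell cannot be told apart, and the part of these cell types in the levels of Nkx2-2, Myrf, Nfia and Nfib was not tested.

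**Figure D4:**
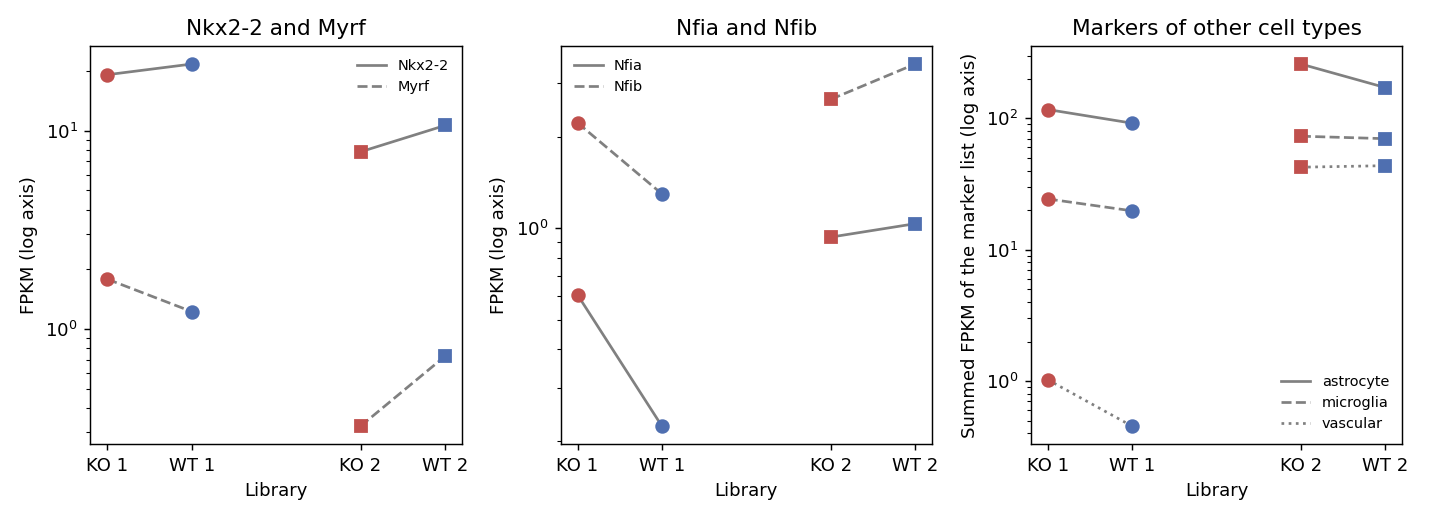
Nkx2-2 and Myrf (left), Nfia and Nfib (middle) and the summed levels of astrocyte, microglia and vascular markers (right), all in FPKM on log axes, with libraries grouped by number and KO left of WT. Nkx2-2 and Myrf are lower in libraries numbered 2, and Nfia, Nfib and the 3 marker sums are higher there, in each genotype.

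Partners and precursor genes set these values in the context of the lineage. Of 22 partners and cofactors looked up, 16 were tested and 0 passed, with both KO libraries above both WT libraries for 3, below for 1 and overlapping for 12 (median log2 fold change -0.065). The count above is near the share of 16.6% over all tested rows. The 1 gene below, beside a share of 18.3%, was Zfp488 itself, the gene of the knock-in allele. Sox10, which acts with Olig2 and Myrf, was at 333.1 and 242.4 FPKM in KO libraries and at 305.8 and 266.5 FPKM in WT libraries, so a lineage marker was high in all 4. Its relative Sox8 was at 183.6 and 122.0 FPKM in KO libraries and 189.1 and 133.7 FPKM in WT libraries, and the deacetylase gene Hdac1 at 49.8 and 65.9 FPKM in KO libraries and 85.0 and 64.4 FPKM in WT libraries. Sox10 and Sox8 were thus higher in libraries numbered 1, as Nkx2-2 and Myrf were.

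Of 13 precursor genes 11 were tested and 0 passed, with both KO libraries above both WT libraries for 6, below for 0 and overlapping for 5 (median log2 fold change 0.35), beside 16.6% above and 18.3% below over all tested rows. This list, too, was chosen with earlier results known. C1ql1, a secreted complement-like protein gene, was at 651.9 and 425.7 FPKM in KO libraries and 589.8 and 486.8 FPKM in WT libraries. The chondroitin sulfate proteoglycan gene Cspg5 was at 337.5 and 303.6 FPKM in KO libraries and 239.1 and 263.1 FPKM in WT libraries, and Lhfpl3 at 116.6 and 117.4 FPKM in KO libraries and 82.2 and 93.2 FPKM in WT libraries. Cspg5 and Lhfpl3 separated the genotypes with KO above, the same side as Olig1 and Olig2, without passing the test (log2 fold changes 0.35 and 0.41; limma, adjusted p = 0.870 and 0.879).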

How the data were processed

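RNA-seq values of 4 libraries of sorted oligodendrocytes (2 KO, 2 WT) were analysed. The deposited values are FPKM, made by the authors, 1 column per library. Per the submitters' processing notes, TopHat (version not given) and genome build mm10 were used. The estimating program, annotation, strand setting and filters: not given in the sources used here.

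Every analysis used log2(FPKM + 1) of the values as deposited, a scale that understates the change of low genes. The 10754 rows with at least 1 FPKM in at least 2 libraries were tested together with limma 3.58.1 in R 4.3.3. The model had genotype as the only term and empirical Bayes variances following a trend with level. Tests were two-sided, with Benjamini-Hochberg adjustment over all tested rows and a threshold of 0.05. The procedure was also run on simulated data, but no outcome of that run is given or relied on here. Ratios of 2 genes were compared with an exact permutation test.

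Reads were approximated from the steps of low FPKM of genes with 1 transcript in GENCODE M21. All 8 lineage factors are named, with 3 pattern neighbours for those spanning more than 1 on the log2 scale, annotated overlapping genes, and the 3 most abundant genes of each list where none passed. Some genes that this rule names are left out here. Paralogs at the extremes, Nkx2-1, Tmem258 and single marker genes were chosen after their values were seen. The members and lists were chosen with earlier results of these data known. Pseudocounts, filters, scalings, a model without trend, the replicate block and leaving out each library were tried as alternatives.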

Additional observations from a re-analysis of the deposited data

How the results depend on the processing

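Under 13 alternatives 0 of the tested lineage factors passed the threshold, and 93 of 100 values of their log2 fold changes kept the sign. Olig1, Olig2, Nkx6-2 and Carhsp1 kept it under each alternative, within 0.080 to 0.26, 0.18 to 0.37, -2.12 to -0.25 and -0.44 to -0.067. With a pseudocount of 5 Myrf was at 0.0093. With each library left out in turn, Nkx2-2 lay between -0.88 and 0.31, Myrf between -0.57 and 0.51, Nfia between -0.21 and 0.53 and Nfib between -0.38 and 0.58. The log2 ratio of Olig1 to Olig2 then differed by -0.10 to 0.020, that of Nfia to Nfib by -0.052 to 0.17 and that of Nkx2-2 to Nkx6-2 by 0.31 to 1.49. With pseudocounts of 0.1 and 5 the difference was 0.31 and 0.013 for Nfia to Nfib, and 1.2 and 0.43 for Nkx2-2 to Nkx6-2. When each library was left out in turn, the number of lineage factors with KO above WT lay between 2 and 4, as did that with KO below WT. Over all tested rows 30.5% to 35.5% then lay above and 32.7% to 36.6% below. KO lay below WT for 1 gene (Nkx6-2) after rescaling to TPM, where Carhsp1 overlapped, and for 1 gene (Carhsp1) among rows with a mean of at least 5 FPKM, where Nkx6-2 was not tested. Rescaling to TPM moved the median of all tested rows to 0.095 and the split of rows at an unadjusted p under 0.05 to 383 higher and 181 lower in KO, against 302 and 306. With no filter 1123 rows had an unadjusted p under 0.05, with a replicate block 1025, and 0 passed in each. Under the replicate block the smallest adjusted p of a lineage factor was 0.533 (Olig1). Over the tested rows the difference between library 1 and 2 in KO correlated with that in WT at 0.289, over 2 pairs, and the labels do not say that a number marks a shared source. Among these genes depth matters most for Myrf in KO 2, with about 72 reads, and for Nfia in WT 1, with about 80.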
